A study of Mus musculus with 43 samples.

Results

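The 7 genes Cthrc1, Cilp, Lrrc15, Fap, Runx1, Nox4 and Lrrc17, which mark activated fibroblasts, were followed in mouse lung. They were taken by symbol, and all 7 were found among the 21938 genes of the count table. They were compared across 3 treatment groups and set against Col1a1, the gene of the alpha 1 chain of type I collagen, over the bleomycin mice. Vehicle was given to control mice (n = 10), the nintedanib vehicle to mice with bleomycin-induced lung fibrosis (n = 16), and nintedanib to mice with the same injury (n = 17). Bleomycin is a DNA-breaking antibiotic used to injure the rodent lung, and nintedanib is an inhibitor of the PDGF, FGF and VEGF receptor tyrosine kinases used to treat pulmonary fibrosis. The study asked whether the drug acts in this model. PolyA RNA of the inferior lobe was read as directional single-end libraries. No allele or transgene is named in any group. Strain, age, sex, dose, route and day are not stated in these sources, and the vehicle of the control mice is not named, so that a difference in vehicle and the bleomycin injury cannot be told apart. Each library was taken as 1 mouse, and no label states whether samples came from separate animals, so the p-values reflect spread between samples, which may be technical.

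After lung injury, resident fibroblasts are known to leave their alveolar state and to pass into matrix-producing states driven largely by TGF-beta, which signals from its receptors to SMAD transcription factors. Genes of these states are used as markers of scar-forming fibroblasts, and they code for proteins of different kinds. Some are secreted into the matrix, some sit on the cell surface, and others are a transcription factor and an oxidase. The mRNA of a whole lobe pools every cell type: a change in the number of cells that carry a transcript and a change in the RNA per cell cannot be told apart here.

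The promoter sequences of 2 members that rose and of 2 that fell are shown, since the results below turn on this difference in direction. Each is the 250 bases before the RefSeq start site (GRCm38.p6), written 5′ to 3′ on the strand of the gene. Capitals mark a match to 1 of 5 motifs, of RUNX, SMAD, AP-1 and TEAD factors and the TATA box, searched on both strands. No match overlapped another. Cilp is on chr9:65264930-65265179 (+ strand) and its match is to the reverse complement of the RUNX motif. Lrrc15 is on chr16:30283255-30283504 (- strand) where its last bases overlap the GENCODE gene, and its match is to the AP-1 motif. Nox4 is on chr7:87246399-87246648 (+ strand), inside the GENCODE gene, whose start lies further upstream, and its match is to the reverse complement of the SMAD motif. Lrrc17 is on chr5:21543277-21543526 (+ strand) and its match is to the TATA box letters.
Cilp: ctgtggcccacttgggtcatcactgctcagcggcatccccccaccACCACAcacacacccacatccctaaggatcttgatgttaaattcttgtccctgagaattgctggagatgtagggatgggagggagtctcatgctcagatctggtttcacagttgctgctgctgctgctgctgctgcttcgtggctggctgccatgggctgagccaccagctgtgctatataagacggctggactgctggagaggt
Lrrc15: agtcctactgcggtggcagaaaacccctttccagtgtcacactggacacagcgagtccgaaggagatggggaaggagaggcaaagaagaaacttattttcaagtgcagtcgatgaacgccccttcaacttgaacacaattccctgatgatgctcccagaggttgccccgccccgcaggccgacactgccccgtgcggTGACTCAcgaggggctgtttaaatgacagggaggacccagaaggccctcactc
Nox4: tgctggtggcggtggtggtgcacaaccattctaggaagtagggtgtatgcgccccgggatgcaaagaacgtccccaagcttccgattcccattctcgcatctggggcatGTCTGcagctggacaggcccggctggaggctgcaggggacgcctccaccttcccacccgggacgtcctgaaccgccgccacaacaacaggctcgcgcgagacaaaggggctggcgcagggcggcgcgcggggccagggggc
Lrrc17: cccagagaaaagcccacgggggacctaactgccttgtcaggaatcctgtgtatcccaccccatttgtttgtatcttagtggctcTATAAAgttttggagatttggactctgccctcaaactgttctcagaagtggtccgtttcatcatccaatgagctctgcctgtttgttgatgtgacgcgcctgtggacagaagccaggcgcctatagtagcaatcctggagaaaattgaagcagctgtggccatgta
The letters searched for RUNX factors were TGTGGT, held by 4614 of 32851 RefSeq windows of this length, and in Cilp they lie at -205 to -200 from the start site. Those for AP-1 were TGANTCA, held by 6.75% of windows, and in Lrrc15 they lie at -53 to -47. Those for SMAD factors were CAGAC, held by 42.2% of windows, and in Nox4 they lie at -141 to -137. The TATA box was searched as TATAAA, held by 12.4% of windows, and in Lrrc17 it lies at -166 to -161. TEAD factors were searched as GGAATG, held by 12.6% of windows. A match is a description of the letters. RefSeq windows were matched for 5 of the 7 members. The fifth, Runx1, had a window at each of 2 start sites, and the downstream of these held a TEAD match.

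In GRCm38 with GENCODE models, the 7 protein-coding genes lie apart from each other. Cthrc1 is at chr15:39076932-39087121, Cilp at chr9:65265180-65280605, Fap at chr2:62500943-62574075, Nox4 at chr7:87246096-87398710 and Lrrc17 at chr5:21543559-21575904. Lrrc15, at chr16:30269302-30283256, and Runx1, at chr16:92601466-92826149, share a chromosome.

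Depth was 13138281 to 19111457 counts per library, and all 7 members passed the filter on low counts that left 14836 genes. Markers of lung epithelium and endothelium (Sftpc, Sftpb, Ager, Scgb1a1, Pecam1, Cldn18 and Hopx) summed to 41470 to 53350 CPM (counts scaled to library size) in control, 21340 to 61170 CPM in vehicle and 36130 to 58000 CPM in nintedanib libraries, so the labelled tissue was present throughout. Vehicle replicate 4 stood apart: of the 33 bleomycin mice it had the highest level of Cthrc1, Fap, Lrrc15, Runx1, Cilp and Col1a1, with 3823 CPM of Col1a1 against 1285 CPM in the next mouse. Fat cell RNA differed between groups, with at least 1 CPM of Adipoq (adiponectin) in 8 of 10 control, 0 of 16 vehicle and 5 of 17 nintedanib libraries. The summed level of 7 fat genes was 8.87 to 2241 CPM in control, 1.88 to 13.5 CPM in vehicle and 2.42 to 1056 CPM in nintedanib libraries. Library names fall into 3 number series of 33, 4 and 6 libraries whose meaning is not stated; the largest holds 9 control, 11 vehicle and 13 nintedanib mice.

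In bleomycin mice given vehicle, 6 of the 7 genes differed from control, and they did not move one way. Cthrc1, Cilp, Lrrc15 and Runx1 rose, Nox4 and Lrrc17 fell, and Fap did not pass the test. By direction, Nox4 and Lrrc17 went against the label of genes raised in activated fibroblasts. Across all 14836 genes 57.9% were called in this comparison, 29.5% higher and 28.3% lower. The members' 6 of 7 is thus to be read against a fit that called most genes. Other fits called fewer: 6245 of 14836 genes and 5 members with 2 surrogate variables. Without libraries with at least 1 CPM of Adipoq it was 3654 of 15276 genes and 3 members. In the main fit the median log2 fold change was 0.44 over the members and -0.01 over all genes. Calls are from edgeR's quasi-likelihood test with Benjamini-Hochberg adjustment over all tested genes, at an adjusted p under 0.05, and fold changes are given on the log2 scale with their standard error (SE).

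**Figure D1:**
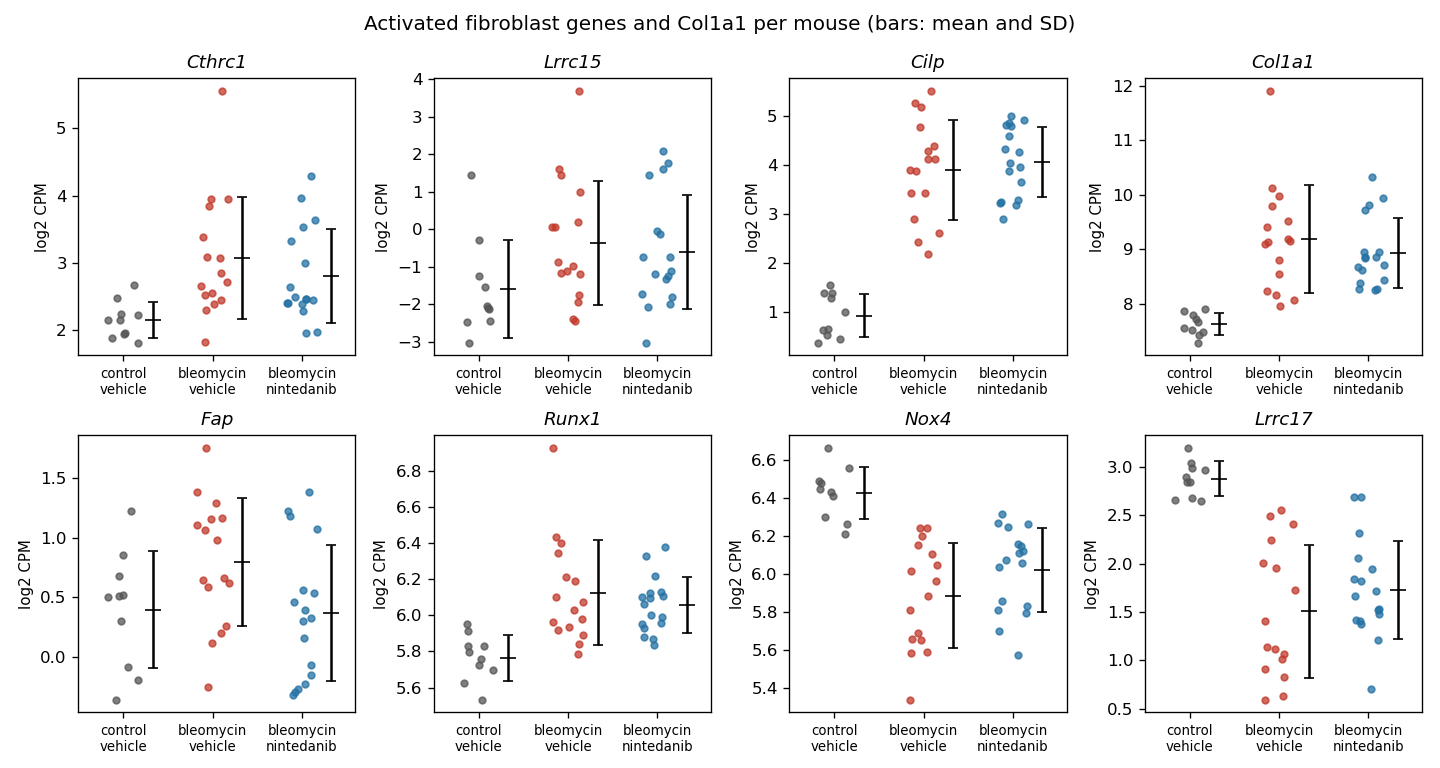
Level of each of the 7 genes and of Col1a1 in every mouse, as log2 CPM, in control vehicle, bleomycin vehicle and bleomycin nintedanib mice. Points are mice and bars are the mean and SD of a group. Cilp is above every control mouse in all 33 bleomycin mice, Lrrc17 is below every control mouse in all 16 vehicle mice, and vehicle replicate 4 is the highest point for Cthrc1, Lrrc15, Runx1 and Col1a1.

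Cilp codes for cartilage intermediate layer protein, a secreted matrix protein that binds TGF-beta. It ranged from 1.17 to 2.79 CPM in control mice (median 1.67), from 4.39 to 45.7 CPM in vehicle mice (median 16.2) and from 7.31 to 32.1 CPM in nintedanib mice (median 16.4). No bleomycin mouse overlapped with control. Mean log2 CPM was 0.92 ± 0.45 (SD, n = 10) in control, 3.91 ± 1.03 (SD, n = 16) in vehicle and 4.06 ± 0.72 (SD, n = 17) in nintedanib mice. The rise in vehicle mice was 9.92-fold (log2 fold change 3.31 ± 0.37 SE, adjusted p = 7.3e-10 by edgeR), the 56th highest log2 fold change of 14836 genes. Of 8 cartilage genes, among them Acan and Col2a1, 2 passed the filter, and all 8 summed to at most 2.42 CPM in any control, 5.36 CPM in any vehicle and 13.2 CPM in any nintedanib library. Of these 2, Comp (cartilage oligomeric matrix protein), which fibroblasts also make, rose by 1.23 and Sox9 was not called. Cilp2, the paralog of Cilp, fell by 2.03 ± 0.45 SE (adjusted p = 0.00016 by edgeR). Counts of Cilp2 were low, with a median of 21.5 in control and 4 in vehicle libraries. The part of fat cell RNA, which differed between groups, in the fall of Cilp2 was not tested.

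Cthrc1 codes for collagen triple helix repeat containing 1, a secreted glycoprotein used as the defining marker of collagen-high fibroblasts in the fibrotic lung. It ranged from 3.39 to 6.24 CPM in control mice (median 4.31), from 3.42 to 46.9 CPM in vehicle mice (median 6.76) and from 3.74 to 19.5 CPM in nintedanib mice (median 5.38). The groups overlapped: 9 of 16 vehicle mice and 6 of 17 nintedanib mice lay above the highest control mouse. Mean log2 CPM was 2.15 ± 0.27 (SD, n = 10) in control, 3.07 ± 0.91 (SD, n = 16) in vehicle and 2.80 ± 0.70 (SD, n = 17) in nintedanib mice, so the spread between bleomycin mice was wider than between control mice. The rise in vehicle mice was 2.39-fold (log2 fold change 1.26 ± 0.33 SE, adjusted p = 0.0013 by edgeR), with 15 of 16 mice above the control median. Without vehicle replicate 4 it was 0.85 on the log2 scale (adjusted p = 0.005).

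Lrrc15, a TGF-beta-inducible membrane protein with leucine-rich repeats, was the scarcest member. It had a median of 2 counts in control, 7 in vehicle and 6 in nintedanib libraries. In CPM it ranged from 0 to 2.58 in control (median 0.114), from 0.0595 to 12.7 in vehicle (median 0.402) and from 0 to 4.08 in nintedanib mice (median 0.34), and the groups overlapped. The libraries with no count, control replicate 10 and nintedanib replicate 2, allow up to 0.173 and 0.217 CPM (3 counts of the library total, counting error only). Its log2 fold change in vehicle mice was 1.90 ± 0.80 SE (adjusted p = 0.039 by edgeR), with 14 of 16 mice above the control median. This call was lost in 11 of the 43 fits that left out 1 library: those without control replicates 2, 3, 5, 6, 7, 8, 9 or 10 and those without vehicle replicates 4, 8 or 14. Without vehicle replicate 4, which held 199 counts, the value was 0.96 (adjusted p = 0.25), and without control replicate 1, which held 41 counts, it was 3.09 (adjusted p = 0.0032 by edgeR).

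Fap codes for fibroblast activation protein, a cell-surface serine protease of the dipeptidyl peptidase family. It ranged from 0.656 to 2.21 CPM in control (median 1.30), from 0.714 to 3.25 CPM in vehicle (median 1.65) and from 0.678 to 2.48 CPM in nintedanib mice (median 1.13). Most mice of the 3 groups overlapped, and 3 of 16 vehicle mice lay above the highest control mouse. The log2 fold change in vehicle mice was 0.44 ± 0.24 SE with a 95% confidence interval of -0.03 to 0.92 (adjusted p = 0.1 by edgeR). Its relatives did not move together. Dpp9 rose by 0.54 and Prep by 0.31, while Dpp4 fell by 0.26 and Dpp8 fell by 0.16 on the log2 scale.

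Runx1, a DNA-binding transcription factor of the core-binding complex, ranged from 46.2 to 61.8 CPM in control (median 54.7), from 55.1 to 121 CPM in vehicle (median 66.2) and from 57.1 to 82.9 CPM in nintedanib mice (median 66.8). All 16 vehicle mice lay above the control median and 11 of them above the highest control mouse. The rise was small, 1.31-fold (log2 fold change 0.39 ± 0.09 SE, adjusted p = 0.00022 by edgeR). Cbfb, the non-DNA-binding partner of the complex, rose by 0.23 ± 0.06 SE and the paralog Runx2 by 0.44 ± 0.12 SE, while Runx3 had a value of 0.07 ± 0.18 SE that was not called. Runx1 is also expressed in blood cells. Of 10 leukocyte genes 6 rose and 1, Cd79a (a B cell receptor chain), fell, with a median of 0.53, and their summed level was 839 to 1279 CPM in control and 963 to 2095 CPM in vehicle libraries. Ptprc, the pan-leukocyte CD45 gene, was at 0.01 on the log2 scale (adjusted p = 0.93 by edgeR). The part of leukocytes in the Runx1 value was not tested.

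Nox4, an NADPH oxidase that makes hydrogen peroxide and is known as a TGF-beta target in fibroblasts, fell. It ranged from 74.0 to 101 CPM in control (median 86.7), from 40.4 to 75.7 CPM in vehicle (median 60.7) and from 47.5 to 79.6 CPM in nintedanib mice (median 67.4). Of the 16 vehicle mice 14 lay below the lowest control mouse. The log2 fold change in vehicle mice was -0.52 ± 0.09 SE, 1.44-fold lower (adjusted p = 2.8e-06 by edgeR). Of the related oxidase genes, Cybb, the phagocyte oxidase, rose by 1.42 ± 0.16 SE. Cyba, the shared p22 subunit that Nox4 needs, rose by 0.94 ± 0.10 SE. Duox1 rose by 4.08 ± 0.60 SE from very low counts, with a median of 0 in control and 11.5 in vehicle libraries. Duox2 was at -0.48 ± 0.26 SE in vehicle mice (adjusted p = 0.12) and lower at -1.01 ± 0.27 SE in nintedanib mice (adjusted p = 0.0015 by edgeR). Nox1 did not pass the filter, with a median of 0.701 CPM in control, 0.227 CPM in vehicle and 0.237 CPM in nintedanib mice.

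Lrrc17, a secreted protein with leucine-rich repeats, fell further. It ranged from 6.12 to 9.03 CPM in control (median 7.18), from 1.39 to 5.76 CPM in vehicle (median 2.30) and from 1.51 to 6.34 CPM in nintedanib mice (median 3.05). Every vehicle mouse was below every control mouse, and 15 of 17 nintedanib mice were. The log2 fold change in vehicle mice was -1.26 ± 0.21 SE, 2.40-fold lower (adjusted p = 2.7e-06 by edgeR). Markers of alveolar fibroblasts, the resting fibroblasts of the air sacs, were lower too: 0 of 13 rose and 11 fell, with a median of -0.86, among them Slc7a10 at -2.01, Inmt at -1.73 and the transcription factor Tcf21 at -1.04. Their summed level was 7109 to 8448 CPM in control and 2710 to 6682 CPM in vehicle libraries. Of 8 smooth muscle genes 0 rose and 6 fell, with a median of -0.49, among them Cnn1 (calponin) at -1.13. The part of these cells in the falls of Nox4 and Lrrc17 was not tested.

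Per kilobase of exon, control mice ranked Nox4 first with a mean level of 10.2 ± 0.97 CPM per kb (SD, n = 10), then Runx1 with 4.53 ± 0.40, Cthrc1 with 2.76 ± 0.56, Lrrc17 with 2.01 ± 0.26, Cilp with 0.437 ± 0.14, Fap with 0.223 ± 0.083 and Lrrc15 with 0.0799 ± 0.15. Among these neighbours the ranges of mean ± SD overlapped for Cthrc1 and Lrrc17, Cilp and Fap, and Fap and Lrrc15. In vehicle mice Nox4 remained first with 7.09 ± 1.32 CPM per kb (SD, n = 16), followed by Cthrc1 with 6.61 ± 6.54, Runx1 with 5.92 ± 1.37 and Cilp with 4.38 ± 2.96. The ranges of mean ± SD of these 4 overlapped in vehicle mice. The Cthrc1 mean includes vehicle replicate 4, with 46.9 CPM against a group median of 6.76 CPM. Lrrc17 followed with 0.843 ± 0.42, Fap with 0.305 ± 0.12 and Lrrc15 with 0.296 ± 0.58 CPM per kb, and their ranges also overlapped one another. Col1a1 lay above all of them, with 30.4 ± 4.24 CPM per kb in control and 118 ± 130 CPM per kb in vehicle mice.

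Other genes of the pathway were counted from lists, which were chosen with earlier results of these data known, so the counts are a description. Of all genes 29.5% were called higher and 28.3% lower in vehicle mice against control. Of 25 further activated-fibroblast genes 20 rose in vehicle mice and 1 fell, with a median log2 fold change of 1.30; Tagln (transgelin, an actin-binding protein) was the one that fell, by 0.57. Grem1, which antagonises BMP ligands, rose by 5.81, Tnc (tenascin C) by 4.11, Thbs2 (thrombospondin 2) by 2.93 and Fn1 (fibronectin) by 2.56, the largest rises of the list. Of 12 TGF-beta response genes 8 rose and 2 fell, with a median of 0.44. Timp1 rose by 3.44 and Ltbp2, a latent TGF-beta binding protein, by 1.87, while the signalling inhibitors Bambi and Smad7 fell by 0.92 and 0.70 and were named after their values were seen. Postn (periostin), another marker of activated fibroblasts, had a value of 0.02 (adjusted p = 0.9) and Acta2 (smooth muscle actin) a value of 0.05 (adjusted p = 0.84), both not called by edgeR.

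Nintedanib against vehicle in bleomycin mice gave no call among the 7 genes by edgeR's quasi-likelihood test, where 7.31% of all genes were called (3.21% higher and 4.1% lower), and 1 of the 7 had an unadjusted p under 0.05. DESeq2 called 0 of the 7. The log2 fold change was -0.44 for Cthrc1 (95% confidence interval -0.99 to 0.10), -0.63 for Lrrc15 (-1.85 to 0.61) and -0.43 for Fap (-0.84 to -0.02), each lower with nintedanib but not called. For Cilp it was -0.01 with an interval of -0.53 to 0.51. Runx1 had a value of -0.09 (-0.24 to 0.06), Nox4 0.13 (-0.03 to 0.28) and Lrrc17 0.17 (-0.21 to 0.56). Col1a1 had a value of -0.52 (-1.07 to 0.03, adjusted p = 0.23 by edgeR). These intervals leave room for a fall of Cthrc1 or Lrrc15 by up to their lower bounds, so the result does not show that the levels were alike.

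The Cthrc1, Lrrc15 and Col1a1 values rested on 1 library. Without vehicle replicate 4 nintedanib against vehicle was -0.07 for Cthrc1 (adjusted p = 0.89), 0.28 for Lrrc15 (adjusted p = 0.81) and -0.08 for Col1a1 (adjusted p = 0.85 by edgeR). With 2 surrogate variables in the fit Cilp was called higher with nintedanib, at 0.55 (adjusted p = 0.019 by edgeR); no other fit with a changed setting called it. Of the 25 further activated-fibroblast genes 2 fell, Ccn4 (a secreted matricellular protein) by 0.85 and Pdgfrb, a receptor that nintedanib inhibits, by 0.40, and none rose. Pdgfrb is also a pericyte gene, and of 8 pericyte genes 3 fell (Rgs5 by 0.89, Cspg4 by 0.50 and Higd1b by 0.31) and none rose, with a summed level of 181 to 341 CPM in vehicle and 151 to 313 CPM in nintedanib libraries; the part of pericytes in the Pdgfrb value was not tested. Of 12 TGF-beta response genes 1 was called, Tgfb1, the ligand itself, which fell by 0.24. The alveolar fibroblast genes Pdgfra, Gpc3 and Macf1 rose by 0.43, 0.40 and 0.19, while 10 of the 13 did not pass the test. Of the smooth muscle genes 4 of 8 rose, with Cnn1 at 0.99 and Myh11 (smooth muscle myosin) at 0.50. Of the members' partners Cbfb fell by 0.16 (adjusted p = 0.05, rounded from just under the threshold) and Dpp8 rose by 0.13.

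**Figure D2:**
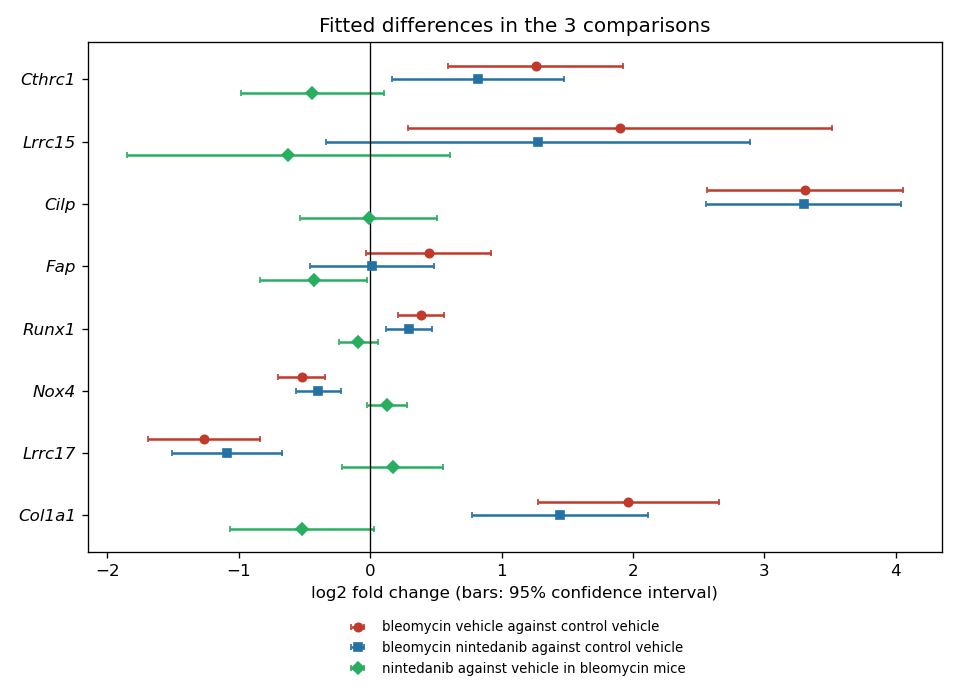
Fitted log2 fold change of each gene in the 3 comparisons, with bars for the 95% confidence interval. The fitted values of the vehicle and nintedanib groups lie on the same side of control for Col1a1 and all 7 members, with Fap in nintedanib mice at 0.02 and below 0 under some alternative settings, and the intervals of nintedanib against vehicle cross 0 for each gene but Fap, for which the interval is -0.84 to -0.02 and the adjusted p is 0.18 by edgeR.

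Nintedanib-treated bleomycin mice differed from control in 5 of the 7 genes, where 53.2% of all genes were called, 28.1% higher and 25.1% lower. This comparison shares its control mice with the first and its nintedanib mice with the second, and is given beside them as values. Cilp had a log2 fold change of 3.30 ± 0.37 SE (adjusted p = 8.3e-10), Cthrc1 0.82 ± 0.33 SE (adjusted p = 0.032) and Runx1 0.30 ± 0.09 SE (adjusted p = 0.0037), all higher by edgeR. Lrrc17 was lower at -1.09 ± 0.21 SE (adjusted p = 2.6e-05) and Nox4 at -0.39 ± 0.09 SE (adjusted p = 0.00019 by edgeR). Lrrc15 had a value of 1.27 ± 0.80 SE (adjusted p = 0.18) and Fap of 0.02 ± 0.23 SE (adjusted p = 0.96), neither called by edgeR. The Cthrc1 call was lost in 8 of the 43 fits that left out 1 library (control replicates 2, 3, 8, 9 and 10 and nintedanib replicates 8, 12 and 13), and over all 43 the value ranged from 0.67 to 0.86 and the adjusted p reached 0.066 by edgeR. The Lrrc15 value was 2.47 and called (adjusted p = 0.019 by edgeR) without control replicate 1.

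Leaving out every library with at least 1 CPM of Adipoq kept 2 control mice. Nox4, Cilp and Lrrc17 were then called against control in both bleomycin groups. Of 15276 genes tested, 3654 were called in vehicle and 3297 in nintedanib mice against control. In vehicle mice Cthrc1 had a value of 1.25 (adjusted p = 0.2), Runx1 of 0.47 (adjusted p = 0.053) and Lrrc15 of 4.01 (adjusted p = 0.16), not called by edgeR. With 2 surrogate variables Cthrc1 had 0.26 (adjusted p = 0.26) and Lrrc15 -1.45 (adjusted p = 0.04) in vehicle mice, so the direction of Lrrc15 turned. The Lrrc15 call was also lost with DESeq2, at 0.92 (adjusted p = 0.24), without a filter on low counts, at 1.89 (adjusted p = 0.053 by edgeR), and in the largest number series, at 1.98 (adjusted p = 0.057 by edgeR). With library totals in place of TMM factors Cthrc1 in nintedanib mice was 0.76 (adjusted p = 0.051 by edgeR). Under each of the alternative settings Cilp stayed higher and Nox4 and Lrrc17 stayed lower than control, with calls in both bleomycin groups.

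Over the 33 bleomycin mice, with group means removed, the members differed in how they followed Col1a1. Cthrc1, Lrrc15 and Cilp rose and fell with collagen from mouse to mouse. Runx1 was called by Pearson r, but not by rank correlation or without vehicle replicate 4. Fap, Nox4 and Lrrc17 were not called by Pearson r. Col1a1 itself ranged from 248 to 3823 CPM in vehicle mice (median 566) and from 305 to 1285 CPM in nintedanib mice (median 458), against 156 to 241 CPM in control mice. Correlations were tested by a two-sided permutation test within group with 100000 resamples, in 7 correlations with Col1a1, and p-values were adjusted over all 14835 other tested genes. Of these genes 29.7% were called, 15.6% with a positive and 14.2% with a negative correlation, so the 4 members called positive stood among many genes that vary with collagen.

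**Figure D3:**
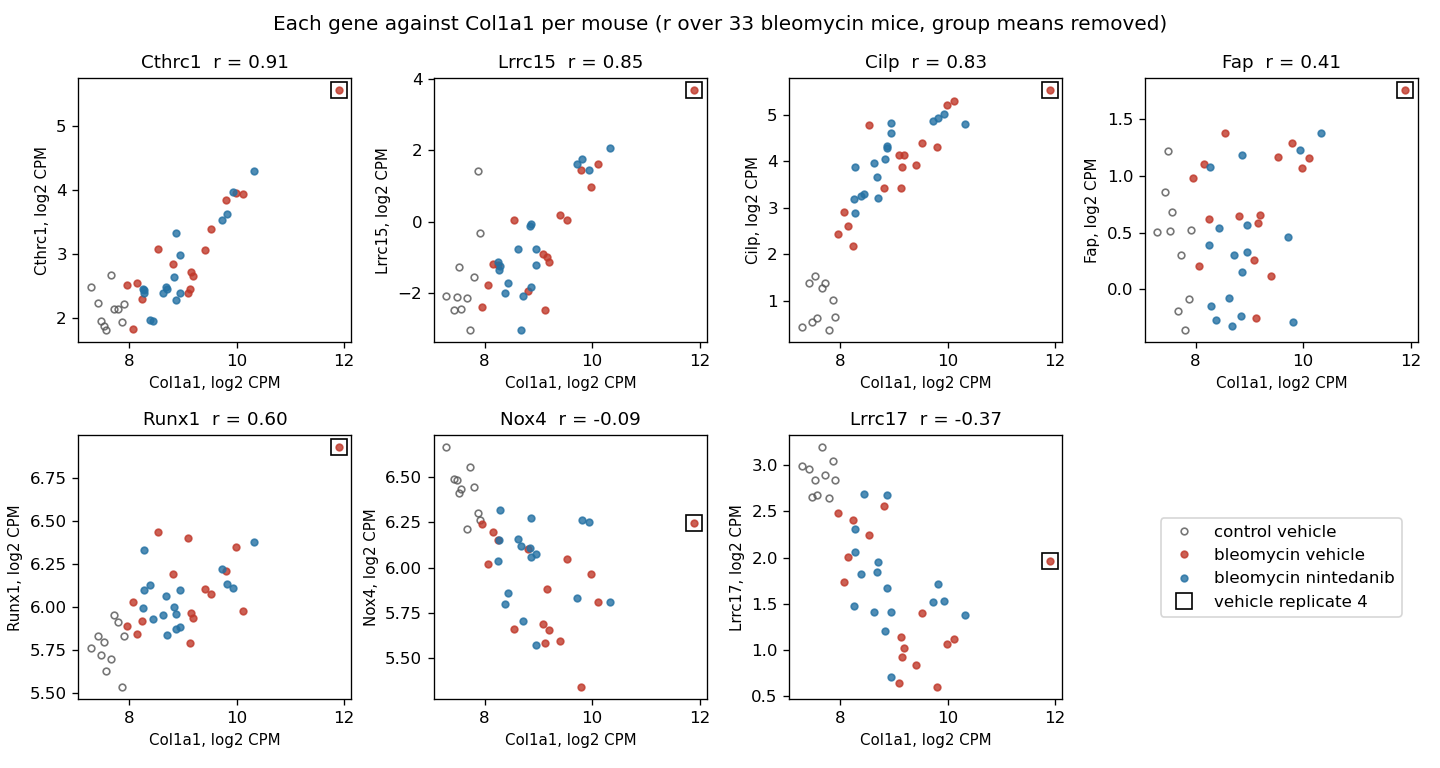
Each gene against Col1a1 per mouse, both as log2 CPM, with control mice as open circles, bleomycin vehicle mice in red and bleomycin nintedanib mice in blue; r is over the 33 bleomycin mice with group means removed. The mice form a line for Cthrc1, Lrrc15 and Cilp (r = 0.91, 0.85 and 0.83) and a cloud for Nox4 (r = -0.09), and the boxed vehicle replicate 4 is at the far right of every panel.

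Cthrc1 gave a Pearson r of 0.91 and a Spearman rho of 0.76 (p = 1e-05, the smallest the permutations can give, adjusted p = 0.0002). Without the 2 mice farthest from the median of Col1a1, vehicle replicate 4 and nintedanib replicate 8, r was 0.84. Among 14835 genes this r was the 21st highest. Lrrc15 gave r = 0.85 and rho = 0.74 (permutation p = 1e-05, adjusted p = 0.0002) and Cilp r = 0.83 and rho = 0.87 (permutation p = 1e-05, adjusted p = 0.0002). Without the same 2 mice they gave 0.78 and 0.85. Lrrc15 had at least 10 counts in only 7 of 16 vehicle and 6 of 17 nintedanib libraries. With a prior count of 0.5 in place of 2 its r was 0.80. Within the vehicle group alone r was 0.92 for Cthrc1, 0.87 for Lrrc15 and 0.83 for Cilp, and within the nintedanib group it was 0.91, 0.86 and 0.83. In the largest number series of libraries, with 24 bleomycin mice, r was 0.91, 0.85 and 0.82.

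Runx1 gave r = 0.60 (permutation p = 0.0021, adjusted p = 0.011), while its rho of 0.33 was not called (adjusted p = 0.17 by permutation). Its relation rested on the 2 mice farthest out. Without them r was 0.25 (adjusted p = 0.35 by permutation). Without vehicle replicate 4 alone r was 0.35 (adjusted p = 0.14 by permutation), also not called. Within groups it was 0.67 in vehicle and 0.42 in nintedanib mice, and in the largest series 0.73. Fap gave r = 0.41 and rho = 0.34 (permutation p = 0.02, adjusted p = 0.062), and 0.16 without the 2 mice. It was called in 7 of the 33 fits that left out 1 mouse. Nox4 gave r = -0.09 and rho = -0.17 (permutation p = 0.66, adjusted p = 0.77). Lrrc17 gave r = -0.37 and rho = -0.50 (permutation p = 0.049, adjusted p = 0.12), without vehicle replicate 4 alone it was called at -0.57 (adjusted p = 0.0069 by permutation), and without the 2 mice r was -0.58. Its rank correlation was called (adjusted p = 0.023 by permutation). Within groups r was 0.44 and 0.38 for Fap, -0.11 and -0.05 for Nox4, and -0.37 and -0.35 for Lrrc17, vehicle and nintedanib in turn; in the largest series the 3 genes gave 0.47, 0.05 and -0.30.

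The correlation did not differ detectably between vehicle and nintedanib mice for any of the 7 genes. The largest difference was 0.25 for Runx1 (permutation of the group label, p = 0.66 before adjustment). In the 10 control mice, where Col1a1 ranged over 1.54-fold against 15.4-fold in vehicle mice, r was -0.13 for Cthrc1, 0.58 for Lrrc15 and -0.01 for Cilp, none of them called; a difference from the bleomycin mice was not tested.

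The same mice stood out for Cthrc1, Lrrc15 and Cilp. The 4 vehicle mice with the most Cthrc1 (replicates 4, 6, 14 and 8, with 46.9, 15.4, 15.3 and 14.3 CPM) were also the 4 with the most Lrrc15, with 12.7, 1.84, 2.94 and 2.61 CPM. The 4 nintedanib mice with the most Cthrc1 (replicates 8, 13, 10 and 12, with 19.5, 15.5, 12.3 and 11.4 CPM) were likewise the 4 with the most Lrrc15, with 4.08, 2.61, 3.24 and 2.94 CPM. For Cilp, 3 of the same 4 vehicle mice and 3 of the same 4 nintedanib mice were among the 4 highest. For Fap it was 2 and 2, for Runx1 2 and 3, for Nox4 1 and 2 and for Lrrc17 0 and 0. How many of all genes share as many mice was not counted. Cthrc1 and Lrrc15 had an r of 0.91 (rho = 0.80, 0.87 without 2 mice), Cthrc1 and Cilp of 0.78 (rho = 0.72, 0.79 without 2 mice) and Lrrc15 and Cilp of 0.77 (rho = 0.77, 0.78 without 2 mice). Nox4 and Lrrc17, the members that fell, went together with an r of 0.58 (rho = 0.52, 0.64 without 2 mice; permutation p = 0.00074, adjusted p = 0.0069), while Nox4 had an r of 0.07 with Cthrc1 and -0.01 with Lrrc15. There were 21 such pairs, and p-values were adjusted over all genes. The share of all genes called with each member was not counted. The 2 mice left out were those farthest from the median of the second gene named, chosen anew for each pair. For Lrrc17, vehicle replicate 4 ranked 10 of 33 and was not among the 2 left out.

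**Figure D4:**
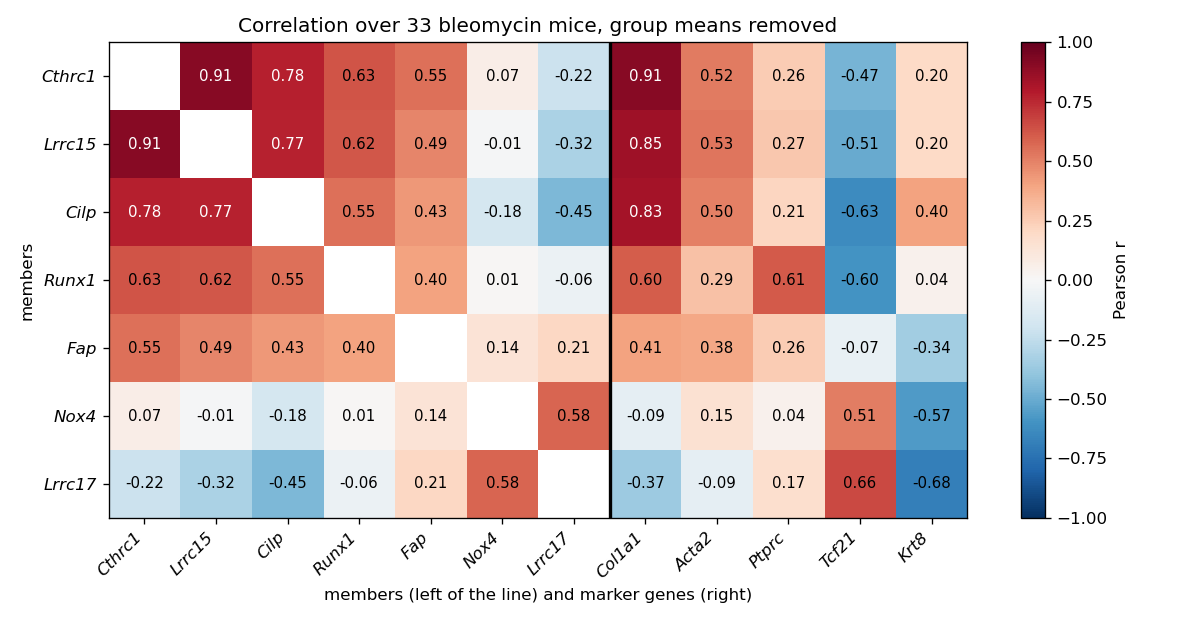
Pearson r over the 33 bleomycin mice with group means removed, between the 7 members (left of the line) and with 5 marker genes (right of the line); red is positive and blue negative. Cthrc1, Lrrc15 and Cilp form a block with each other and Col1a1 (0.77 to 0.91), while Nox4 and Lrrc17 pair with each other (0.58) and with Tcf21 (0.51 and 0.66).

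Other cell type markers were set beside the members in the same mice, in 28 correlations. The 2 farthest mice are here those farthest from the median of the marker. Vehicle replicate 4 ranked 31 of 33 for Tcf21 and 22 of 33 for Krt8, and was not among the 2 left out for these. The share of all genes called with each marker was not counted, so the calls are not shown to be particular to the members. With Tcf21, the alveolar fibroblast factor, Lrrc17 had r = 0.66 (rho = 0.63, 0.58 without the 2 farthest mice, permutation p = 8e-05, adjusted p = 0.0017) and Nox4 r = 0.51 (rho = 0.43, 0.40 without 2, permutation p = 0.0039, adjusted p = 0.025). Cilp had r = -0.63 with Tcf21 (rho = -0.54, -0.67 without 2, permutation p = 0.00019, adjusted p = 0.003), Runx1 r = -0.60 (rho = -0.60, -0.59 without 2, permutation p = 0.00048, adjusted p = 0.0058), Lrrc15 r = -0.51 (rho = -0.46, -0.52 without 2, permutation p = 0.0037, adjusted p = 0.024) and Cthrc1 r = -0.47 (rho = -0.39, -0.53 without 2, permutation p = 0.0089, adjusted p = 0.044). With Krt8, a keratin of injured transitional epithelium, Lrrc17 had r = -0.68 (rho = -0.59, -0.62 without 2, permutation p = 4e-05, adjusted p = 0.0016) and Nox4 r = -0.57 (rho = -0.52, -0.49 without 2, permutation p = 0.0012, adjusted p = 0.0098). With Ptprc, the leukocyte marker, Runx1 had r = 0.61 (rho = 0.43, 0.39 without 2, permutation p = 0.00042, adjusted p = 0.012), and the other 6 members had r from 0.04 to 0.27. With Acta2 the correlations of Cthrc1, Lrrc15 and Cilp were 0.52, 0.53 and 0.50, not called after adjustment over all genes (smallest adjusted p = 0.074 by permutation). Those of Fap, Runx1, Nox4 and Lrrc17 with Acta2 were 0.38, 0.29, 0.15 and -0.09, also not called. For Lrrc17 rho was -0.26, and r was -0.44 without 2.

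The genes most like each member over the 33 mice, by Pearson r among genes other than the 7 members whose mean log2 CPM reached 1, are given as a description. They were Serpine2, Col1a1 and Col1a2 for Cthrc1 (r = 0.94, 0.91 and 0.91), Thbs2, Serpine2 and Fmod for Lrrc15 (0.90, 0.90 and 0.88) and Mfap5, Shc4 and Ltbp2 for Cilp (0.90, 0.89 and 0.89). For Runx1 they were Igsf9, Stk17b and Bcl2a1d (0.80, 0.80 and 0.77) and for Fap Tspan3, Rps9 and Lfng (0.80, 0.78 and 0.77). Nox4 was nearest to Col23a1, Spon1 and Robo1 (0.80, 0.80 and 0.79), and Lrrc17 to Plpp3, Kcnh2 and Col17a1 (0.81, 0.79 and 0.79). The type I collagen chains stood among the 3 nearest genes of Cthrc1, and not among those of the other 6 members. Bcl2a1d belongs to a family of near-identical genes whose reads may be divided between copies, and its value is uncertain.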

How the data were processed

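RNA was sequenced from 43 lung samples in 3 groups. Whole-number counts per gene are what the authors deposited. STAR 2.7.0f, R 3.6.0 and GRCm38 are listed, per the submitters' processing notes, without roles. Counting tool, strand setting and annotation release were not given in the sources used here, so reads of overlapping genes or of antisense partners may be mixed. Each gene identifier matched a GENCODE symbol.

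filterByExpr of edgeR, set to at least 10 counts by group and 15 in total, left 14836 genes with 99.96% of counts. These were tested two-sided with the robust quasi-likelihood fit of edgeR, TMM factors and a coefficient for each group over all 43 libraries, adjusted by Benjamini-Hochberg over all tested genes at 0.05. Levels are CPM with TMM factors, and log2 CPM has a prior count of 2. The median biological coefficient of variation was 13.6%. Of 301 same-group pairs of libraries, none agreed within sampling noise (smallest chi-square per degree of freedom 5.36). The fit was also tested on simulated counts, with changed genes drawn at random from all tested genes. Few genes were changed, and all others had the same mean in every group. No fat RNA difference or extreme mouse was built in. The simulation differs in this from the real libraries, for which its rates may not hold. At 1.5-fold it recovered 75% of them for vehicle against control, 85% for nintedanib against vehicle and 72% for nintedanib against control. Of the calls 1.2%, 5.7% and 4% were false, in that order. These rates were not estimated for the members. For nintedanib against vehicle their log2 SE was 0.61 for Lrrc15, 0.27 for Cthrc1 and 0.07 for Runx1.

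Correlation p-values come from permutations and were adjusted over all tested genes, in place of the planned adjustment over the members. Alternatives were RLE factors, library totals, no filter, DESeq2, fits of 2 groups, library series, surrogate variables, libraries without Adipoq, a prior count of 0.5, rank correlation and leaving out each library. Python 3.11.15 with SciPy 1.17.1 and NumPy 2.4.6 was used for correlations, and R 4.3.3 for fits with edgeR 4.0.16, DESeq2 1.42.0 and sva 3.50.0. The members, the gene lists and the tests were chosen with earlier results of these data known. Named genes are the members, Col1a1, 7 fixed markers, the members' paralogs and partners, at most 4 called genes of a list with the largest change, and the 3 genes nearest to each member. Protein features were not analysed here.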

Additional observations from a re-analysis of the deposited data

How the results depend on the processing

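Most values kept their direction and their side of the threshold. With 2 surrogate variables the log2 fold change of Lrrc15 turned to -1.45 in vehicle and -0.44 in nintedanib mice against control. Nintedanib against vehicle turned to 0.10 for Cthrc1, 1.02 for Lrrc15, 0.55 for Cilp and 0.16 for Col1a1. In that comparison 1 member was called, and 1150 of 14836 genes. DESeq2 gave Lrrc15 0.33 for nintedanib against vehicle, and library series as a covariate gave Cilp 0.044. Fap in nintedanib mice against control was -0.039 with library totals, -0.016 in a fit of 2 groups, -0.012 in the largest series and -0.39 without Adipoq libraries. Without Adipoq libraries, which left 2 control mice, 15276 genes were tested. Of these 3654 were called for vehicle against control, 525 for nintedanib against vehicle and 3297 for nintedanib against control. Of the members 3 were called in each control comparison. A fit of the 2 bleomycin groups called 640 genes. Lrrc15 did not pass the filter in fits of 2 groups. For the correlation with Col1a1, Fap was called with library totals (0.44), Nox4 was 0.054 in the largest series, Runx1 was not called by rho (0.33) or without the 2 farthest mice (0.25), and Lrrc17 was called by rho (-0.50) and without them (-0.58). Except where given, the cause was not tested.

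Leaving out 1 library moved nintedanib against vehicle from -0.93 to 0.28 for Lrrc15 and from -0.083 to 0.133 for Cilp, and its calls from 696 (without nintedanib replicate 1) to 1559 (without vehicle replicate 13). Fap in nintedanib mice against control ranged from -0.089 to 0.111. The correlation with Col1a1 ranged from 0.28 to 0.47 for Fap, 0.35 to 0.67 for Runx1 and -0.57 to -0.31 for Lrrc17. No paired analysis was possible because the labels give the groups no replicate numbers. Low counts limit Lrrc15 and Fap, and the number of control mice limits the comparisons with control.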
